A study of Mus musculus with 8 samples.

Results

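The triglyceride synthesis genes Gpam, Agpat2, Agpat3, Lpin1, Lpin2, Dgat1, Dgat2, Mogat1, Mogat2 and Pnpla3 were followed in the liver RNA-Seq of CDA-HFD-fed mice given a vector that deletes Smo in hepatocytes or a control vector. The genes were selected by symbol, as 10 of the 25239 symbols in each count list. All 8 mice were adult males of the Smo flox/flox line on a C57Bl6/J background, and all ate the CDA-HFD, a choline-deficient, amino acid-defined diet high in fat that causes steatohepatitis, for 6 weeks. In the last week, 4 mice received AAV8-TBG-Luciferase by tail vein (control mice, whose genotype label is WT although they carry the floxed alleles) and 4 received AAV8-TBG-Cre Recombinase (Smo-KO mice). The TBG promoter drives the vector in hepatocytes only, so that other liver cells keep Smo, and the RNA came from whole liver. In such bulk RNA, fewer cells of a type and less RNA per cell cannot be told apart. Libraries held between 8203299 and 9999732 reads on genes. Smo averaged 8.40 ± 0.270 CPM (read counts scaled to library size) in control and 4.56 ± 0.765 CPM in Smo-KO livers (SD, n = 4 each), and its values did not overlap between the groups.

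Hepatocytes store fatty acids as triglyceride through the glycerol 3-phosphate pathway. A GPAT enzyme adds the first acyl chain to glycerol 3-phosphate, an AGPAT enzyme adds the next and makes phosphatidate, a lipin removes the phosphate to give diacylglycerol, and a DGAT enzyme adds the last chain. MGAT enzymes make diacylglycerol by a shorter route from monoacylglycerol and are best known from the intestine. Pnpla3 encodes a lipid droplet protein with acylglycerol hydrolase and acyltransferase activity. In the liver, the transcription factor SREBP-1c, encoded by Srebf1, is known to activate Gpam and Pnpla3 when insulin is high.

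Of the 10 genes, 3 had lower average RNA levels in Smo-KO livers, and the other 7 had higher averages. Pnpla3 was the member with the largest difference, at 43.6% of the control level. Gpam, the first enzyme of the pathway, was at 87.6%, and Agpat2 was at 83.4%. The enzymes of the last step, Dgat1 and Dgat2, were at 104% each. Counts, after TMM scaling, were tested with edgeR (quasi-likelihood F test) over all 12977 genes that passed the filter on low counts, with Benjamini-Hochberg adjustment. All 10 members passed the filter. No member reached an adjusted p under 0.05. No gene at all did (0% of genes tested), while 1797 genes (13.8%) had an unadjusted p under 0.05 and DESeq2's Wald test called 163. Of the members, 2 had an unadjusted edgeR p under 0.05 (Pnpla3 and Gpam), against 13.8% of all genes in either direction. Both were lower in Smo-KO livers, against 7.15% of all genes for lower levels. Pnpla3 passed the filter through the control livers, where it is higher. With at least 10 counts required in every liver, Pnpla3 was not tested, Gpam had an unadjusted edgeR p of 0.0503, and the count was 0. Gpam lay at the threshold: its unadjusted edgeR p of 0.0464 became 0.0543 with RLE size factors, 0.0591 with no filter and up to 0.143 with 1 liver left out, at log2 fold changes from -0.22 to -0.13, so these counts are given as a description. The count was 3 with no filter (Agpat2, Lpin2 and Pnpla3) and 4 with the replicate block (Gpam, Agpat2, Lpin2 and Pnpla3), where Lpin2 was higher in Smo-KO livers. The same 2 genes had groups that did not overlap, again with lower values in Smo-KO livers, against 4.34% of all genes, and no member was higher in all Smo-KO than in all control livers, against 3.03%. The median log2 fold change of the 10 members was 0.06, beside -0.000845 over all genes tested, and it was 0.0066 without control mouse 3 and -0.0017 without Smo-KO mouse 2.

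**Figure D1:**
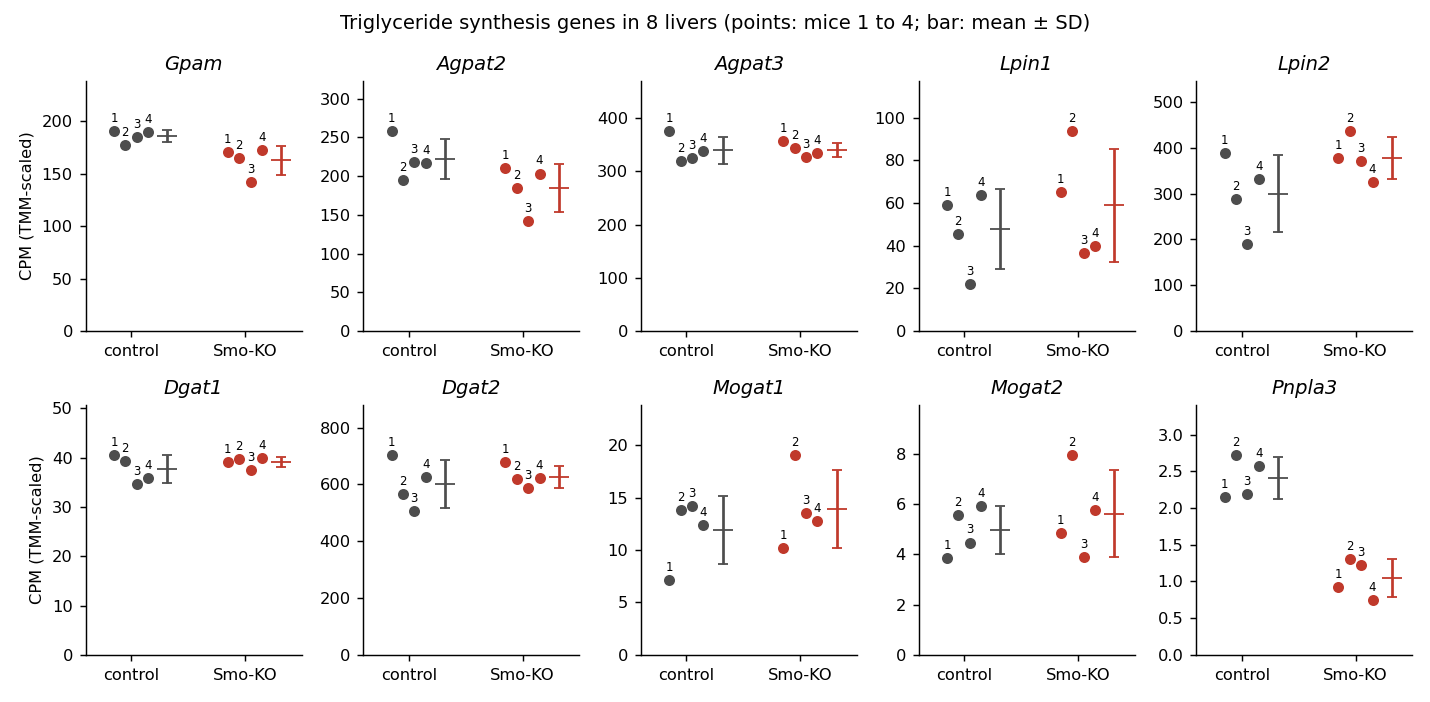
RNA level of each of the 10 genes in CPM (vertical axis from 0, a scale of its own in each panel) in the 4 control and 4 Smo-KO livers, with mouse numbers beside the points and the mean ± SD to their right. The Smo-KO points lie below all control points for Pnpla3 (at most 1.31 CPM against at least 2.15 CPM) and for Gpam (at most 173 CPM against at least 178 CPM), and the groups overlap for the other 8 genes.

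Pnpla3 lies at chr15:84167837-84187236 on the plus strand (GRCm38, the build named in the submitters' processing notes, with gene positions from GENCODE M21), and Gpam at chr19:55067268-55127238 and Agpat2 at chr2:26593057-26604417 lie on the minus strand. These are the 3 members with the smallest p-values, and the 250 bases before their start sites are given from RefSeq on GRCm38.p6, so that the regulatory sequence can be read beside the levels. The stretches are chr15:84167566-84167815, chr19:55127239-55127488 and chr2:26604418-26604667, each on the strand of its gene and written 5′ to 3′. Gpam has another annotated start, and which start these livers used was not measured. Capitals mark the CCAAT box, found here on the opposite strand as ATTGG.
Pnpla3: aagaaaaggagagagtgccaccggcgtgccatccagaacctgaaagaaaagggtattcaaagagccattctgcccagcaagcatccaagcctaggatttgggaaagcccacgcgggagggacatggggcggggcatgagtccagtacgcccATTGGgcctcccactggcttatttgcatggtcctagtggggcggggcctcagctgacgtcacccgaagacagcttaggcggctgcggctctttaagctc
Gpam: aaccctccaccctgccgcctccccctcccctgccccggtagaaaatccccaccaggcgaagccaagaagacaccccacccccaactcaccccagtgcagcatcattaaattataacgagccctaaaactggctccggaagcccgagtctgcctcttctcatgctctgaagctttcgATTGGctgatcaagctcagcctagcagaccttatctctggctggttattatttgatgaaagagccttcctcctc
Agpat2: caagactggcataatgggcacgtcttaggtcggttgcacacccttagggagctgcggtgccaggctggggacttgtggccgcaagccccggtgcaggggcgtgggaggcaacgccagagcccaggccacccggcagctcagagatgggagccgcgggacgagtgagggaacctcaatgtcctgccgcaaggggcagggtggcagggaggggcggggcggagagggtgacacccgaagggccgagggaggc

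A set of 3 motifs, chosen after values had been seen, were searched on both strands of the 250 bases before each start. RefSeq promoters were matched for 7 of the members, with 10 start sites, and Dgat1, Dgat2 and Mogat2 were not matched. The CCAAT box (CCAAT) was found 99 bases before the start of Pnpla3 and 74 bases before that of Gpam, and in 3 of the 10 member promoters, the remaining one being 1 of the 3 of Lpin2. It is a common motif, present in 33.8% of the 32851 promoters of the same length. The E-box CACGTG, present in 6.02% of promoters, was found in Lpin2. The consensus of the sterol response element, TCACNCCAC, present in 1.05%, was found in none of the 10. A match describes the letters only and is no measure of binding, and a missing match does not show that a site is absent. Sites that differ from the consensus or lie outside the 250 bases were not searched.

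Pnpla3 was expressed at a low level in these livers. Control mice 1 to 4 had 2.15, 2.73, 2.19 and 2.57 CPM, from 19, 26, 22 and 26 reads. Smo-KO mice 1 to 4 had 0.93, 1.31, 1.22 and 0.75 CPM, from 9, 12, 10 and 7 reads. Every Smo-KO liver was below every control liver. Such a split gives the exact permutation test its smallest possible p (two-sided p = 0.0286, and no grouping of 8 mice can give less). The log2 fold change was -1.20 (standard error 0.26, 95% interval -1.76 to -0.64), edgeR adjusted p 0.126, and by its unadjusted p Pnpla3 ranked 51 among all genes tested. The log2 fold change ran from -1.32 to -1.06 when each liver was left out in turn. Among the genes that the filter kept, 26, with Pnpla3 among them, had a log2 fold change as low or lower. Pnpla3 passed the filter through the control livers: all 4 of them, but only 2 of the 4 Smo-KO livers, exceeded its level of 1.06 CPM. A requirement of at least 10 reads in every liver removes the gene. Since the filter kept Pnpla3 through the group where it is higher, its p-values, its interval and its ranks are given as a description only. In the annotation, 105 bases of its exons are shared with Gm49513 on the same strand, a gene model that the count lists do not hold.

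Gpam encodes the mitochondrial GPAT, which commits fatty acids to glycerolipids. Its levels were 191, 178, 186 and 190 CPM in control mice 1 to 4, a narrow range. They were 171, 166, 142 and 173 CPM in Smo-KO mice 1 to 4. The highest Smo-KO value lay just below the lowest control value, and Smo-KO mouse 3 stood below the other 3. The means were 186 ± 5.86 and 163 ± 14.1 CPM (SD, n = 4 each), with a log2 fold change of -0.19 (standard error 0.09) and edgeR adjusted p 0.349. Without overlap, the exact permutation test gives its smallest possible p (two-sided p = 0.0286, not adjusted). Of all genes tested, 4.34% were likewise lower without overlap. Without Smo-KO mouse 3 the log2 fold change was -0.13.

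Agpat2, the AGPAT whose loss in humans causes congenital lipodystrophy, was at 258, 195, 218 and 217 CPM in control mice 1 to 4. Smo-KO mice 1 to 4 had 211, 184, 142 and 203 CPM. All 4 Smo-KO livers were below the control mean, but the groups overlapped, and Smo-KO mouse 3 was again the lowest. The difference was within what regrouping the mice gives (exact permutation test, two-sided p = 0.143), with a log2 fold change of -0.26 (95% interval -0.54 to 0.01) and edgeR adjusted p 0.384. Without Smo-KO mouse 3 the log2 fold change was -0.15. Of its exon bases, 64 are shared with Egfl7 on the opposite strand, whose reads cannot be told apart unless the counting used strand, which is not given in the sources used here. Agpat3 (chr10:78269178-78352489), which encodes a related acyltransferase of the endoplasmic reticulum and Golgi, had 339 ± 25.5 CPM in control and 340 ± 12.8 CPM in Smo-KO livers. Its log2 fold change was 0.01 (95% interval -0.18 to 0.19), and it was -0.019 without control mouse 2.

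The lipins convert phosphatidate to diacylglycerol, and the product of Lpin1 also acts in the nucleus as a transcriptional coactivator in fasting. Lpin2 (chr17:71182560-71249817) had 388, 288, 189 and 331 CPM in control mice 1 to 4. It had 377, 436, 370 and 325 CPM in Smo-KO mice 1 to 4. All 4 Smo-KO livers were above the control mean, but control mouse 1 lay above all Smo-KO livers except mouse 2. The log2 fold change was 0.33 (95% interval -0.04 to 0.71, edgeR adjusted p 0.417, exact permutation p = 0.200), and without control mouse 3, the lowest control, it was 0.17. Lpin1 (chr12:16535669-16610966) was the most variable of the 10 genes, with an SD of 39.3% of the mean in control and 44.9% in Smo-KO livers. Control mice 1 to 4 had 59.2, 45.6, 22.1 and 63.9 CPM. Smo-KO mice 1 to 4 had 65.4, 93.7, 36.7 and 40.1 CPM. Smo-KO mouse 2 was the highest and control mouse 3 the lowest liver for both lipins. The log2 fold change of Lpin1 was 0.31 with a 95% interval from -0.38 to 1.00, and it was -0.0049 without Smo-KO mouse 2.

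The DGAT enzymes close the pathway, Dgat2 mainly with newly made fatty acids and Dgat1 mainly with recycled ones. Dgat2 (chr7:99153658-99182719) had 705, 567, 507 and 627 CPM in control mice 1 to 4. Smo-KO mice 1 to 4 had 680, 621, 587 and 623 CPM, all within the control range. Its log2 fold change was 0.06 (95% interval -0.17 to 0.29, edgeR adjusted p 0.834), and it was -0.0079 without control mouse 3. Dgat1 (chr15:76502015-76511953) had 37.7 ± 2.81 CPM in control and 39.1 ± 1.05 CPM in Smo-KO livers, and a log2 fold change of 0.05 (95% interval -0.14 to 0.25).

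Mogat1 (chr1:78510991-78538173) and Mogat2 (chr7:99219084-99238619) encode the MGAT enzymes, and Mogat2 lies beside Dgat2, to which it is related, on chromosome 7. Mogat1 had 7.15, 13.8, 14.2 and 12.4 CPM in control mice 1 to 4. Smo-KO mice 1 to 4 had 10.2, 19.1, 13.5 and 12.8 CPM. Control mouse 1 was the lowest and Smo-KO mouse 2 the highest, and the other livers were mixed. The log2 fold change was 0.22 (95% interval -0.26 to 0.70), and it was 0.045 without control mouse 1 and 0.027 without Smo-KO mouse 2. Mogat2 had between 32 and 73 reads per liver, 4.95 ± 0.960 CPM in control and 5.62 ± 1.74 CPM in Smo-KO livers. Its log2 fold change was 0.18 (95% interval -0.32 to 0.68), and it was -0.033 without Smo-KO mouse 2. Of the exon bases of Mogat1, 189 are shared with BC035947 on the opposite strand.

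**Figure D2:**
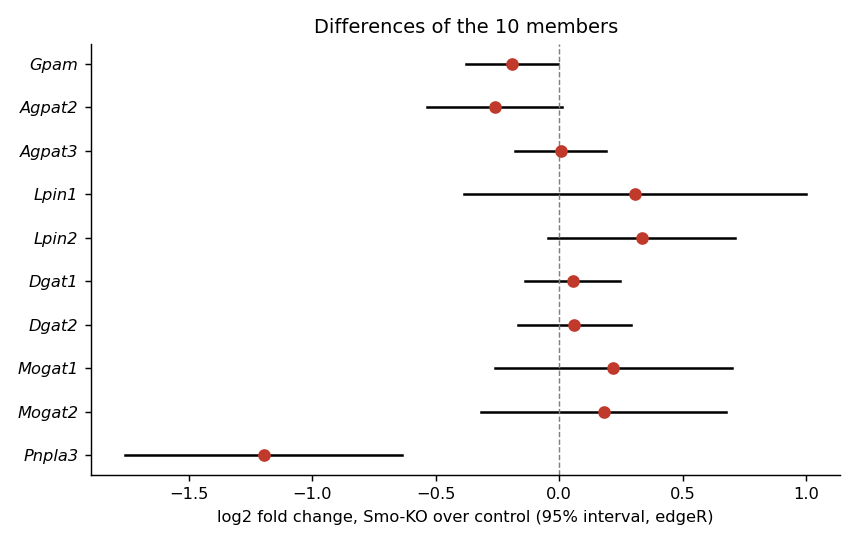
Log2 fold change of each member, Smo-KO over control (horizontal axis), from edgeR's quasi-likelihood fit, with its 95% interval as a line and a dashed line at 0. The intervals of Pnpla3 (-1.76 to -0.64) and Gpam (-0.38 to -0.0036) lie below 0 and those of the other 8 genes cross it.

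Levels of different genes were compared per kilobase of merged exons of their coding transcripts, as CPM per kb. In control livers Dgat2 had the highest level, at 266 ± 37.3 CPM per kb, followed by Agpat2 at 149 ± 17.6. Agpat3 at 50.2 ± 3.77 and Lpin2 at 47.8 ± 13.4 CPM per kb came next and overlapped each other. Gpam followed at 29.3 ± 0.923 and Dgat1 at 19.9 ± 1.49 CPM per kb. Mogat1 at 9.66 ± 2.65 and Lpin1 at 7.70 ± 3.03 CPM per kb overlapped each other, and Mogat2 at 2.78 ± 0.539 and Pnpla3 at 1.84 ± 0.216 CPM per kb were the lowest. Apart from those 2 overlapping pairs, each gene's 4 control values lay above those of the next gene in the order. In Smo-KO livers the same pairs overlapped, with Dgat2 at 277 ± 17.0 CPM per kb at the top and Pnpla3 at 0.800 ± 0.198 at the bottom.

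Within each step, the isoforms were set against each other in the same unit, within the families GPAT (Gpam and Gpat2 to Gpat4), AGPAT (Agpat1 to Agpat5), lipin (Lpin1 to Lpin3), MGAT and DGAT. Lclat1 and the lipid phosphate phosphatases Plpp1 to Plpp3 were not part of these sums. Dgat2 made up 93.0% ± 0.688 of DGAT RNA in control and 93.0% ± 0.331 in Smo-KO livers (exact permutation test, two-sided p = 0.971). Mogat1 made up 77.1% ± 4.04 and 78.1% ± 3.62 of MGAT RNA (exact p = 0.686), and Lpin1 12.5% ± 2.52 and 12.5% ± 3.76 of lipin RNA (exact p = 1), most of which was Lpin2. Gpam held 46.1% ± 2.56 of GPAT RNA in control and 43.9% ± 2.13 in Smo-KO livers (exact p = 0.200). Gpat4, which encodes a GPAT of the endoplasmic reticulum, held 29.7% ± 1.69 and 34.7% ± 3.33. Agpat2 held 67.9% ± 1.65 of AGPAT RNA in control and 63.2% ± 4.02 in Smo-KO livers, a difference of -4.73 percentage points (exact p = 0.0571). Adjusted over the 5 shares tested, the p-values ran from 0.286 for Agpat2 to 1. The summed level of the AGPAT family was 219 ± 22.5 CPM per kb in control and 196 ± 21.6 in Smo-KO livers (exact permutation p = 0.171), and that of the DGAT family 286 ± 38.3 and 298 ± 17.3 (exact permutation p = 0.629).

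**Figure D3:**
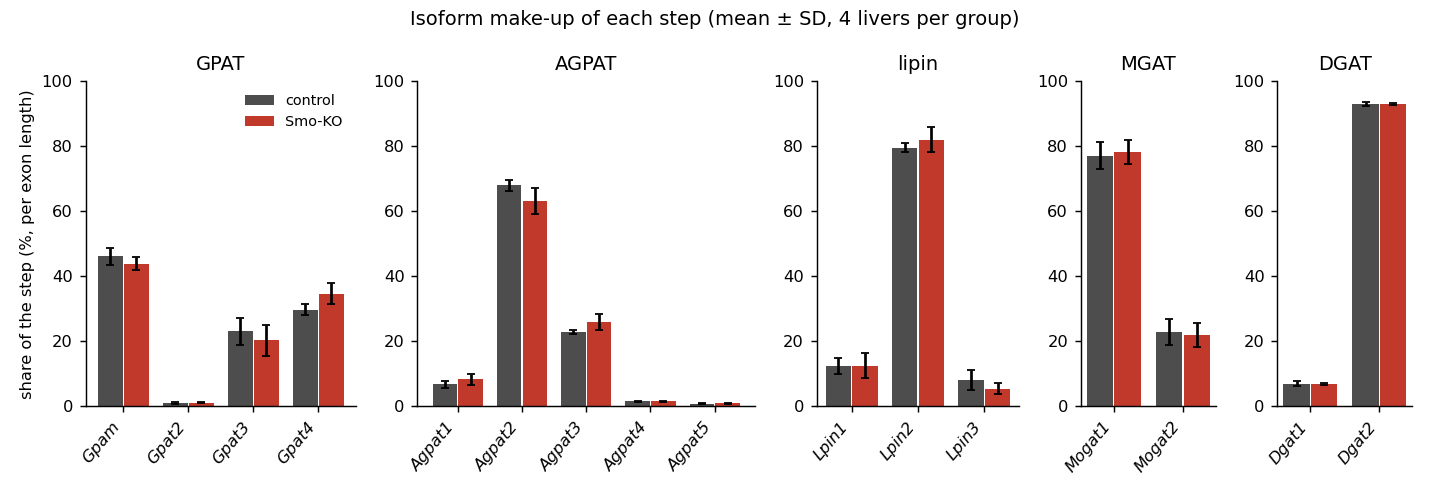
Share of each isoform in the summed RNA of its enzyme family (vertical axis, percent, levels per exon length), as the mean ± SD of 4 control and 4 Smo-KO livers. Dgat2, Lpin2 and Mogat1 make up most of their families in both groups, and Agpat2 holds 67.9% of its family in control and 63.2% in Smo-KO livers.

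Genes around the pathway were taken from fixed lists, and counts are of genes with an unadjusted edgeR p under 0.05, against 6.7% of all genes for higher and 7.15% for lower levels. None of the genes in these lists had an adjusted p under 0.05. Of 11 other isoforms of the same steps, 0 were higher and 0 lower, and the most abundant, Plpp3, a lipid phosphate phosphatase, had 138 ± 3.97 CPM in control and 147 ± 12.1 CPM in Smo-KO livers. Of 5 genes tested for the supply of glycerol 3-phosphate, 1 was lower. This was Gpd1, the glycerol 3-phosphate dehydrogenase of the cytosol, with 258 ± 29.6 CPM in control and 205 ± 31.3 CPM in Smo-KO livers and no overlap of the groups (log2 fold change -0.33). Aqp9, the hepatic glycerol channel and the most abundant of that list, had 512 ± 74.5 and 497 ± 82.2 CPM.

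Acyl-CoA synthetases activate the fatty acids that the acyltransferases use, and of 4 tested (Acsl6 was at 0 in all livers) 1 was higher and 2 were lower. Acsl3, which sits on nascent lipid droplets, had 32.8 ± 3.41 CPM in control and 21.4 ± 4.63 CPM in Smo-KO livers (log2 fold change -0.61, adjusted p 0.146). Acsl5 ranged from 302 to 346 CPM in control livers and from 257 to 273 CPM in Smo-KO livers, without overlap. Acsl1, the most abundant of them and a known target of PPAR alpha, was at 375 ± 38.6 and 521 ± 141 CPM (log2 fold change 0.47, and 0.29 without Smo-KO mouse 3), with Smo-KO mouse 1 at 364 CPM within the control range. Of 11 genes that draw phosphatidate or diacylglycerol into phospholipid, 2 were higher and 0 lower. Chpt1, a choline phosphotransferase, had 82.8 ± 10.5 and 102 ± 14.5 CPM, Dgkh, a diacylglycerol kinase, had 4.07 ± 1.38 and 7.81 ± 3.04 CPM, and the most abundant, Cds2, had 135 ± 6.67 and 125 ± 10.4 CPM. Of 7 genes for lipid droplet formation in the endoplasmic reticulum, none was higher or lower, and Vmp1, the most abundant, had 221 ± 23.5 and 227 ± 23.3 CPM.

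Of 9 hydrolases of acylglycerols and their partners tested, 4 were higher and 0 lower, 5 did not pass, and Pnpla5 was at 0 in all livers. Pnpla2, the adipose triglyceride lipase and a relative of Pnpla3, had 189, 133, 143 and 176 CPM in control mice 1 to 4. It had 222, 216, 232 and 199 CPM in Smo-KO mice 1 to 4, all above the highest control (log2 fold change 0.44, edgeR adjusted p 0.156). Lipe, the hormone-sensitive lipase, had 12.7 ± 1.97 and 17.1 ± 2.10 CPM, also without overlap. Ces1d, a carboxylesterase that hydrolyses stored triglyceride, had 169, 148, 126 and 182 CPM in control mice 1 to 4. Its level was 158, 300.5, 479 and 368 CPM in Smo-KO mice 1 to 4, so that Smo-KO mouse 1 stayed within the control range. Its relative Ces1g, the most abundant of the list, had 393 ± 30.5 and 456 ± 45.4 CPM, and the family's sequence similarity makes the split of reads between members uncertain.

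**Figure D4:**
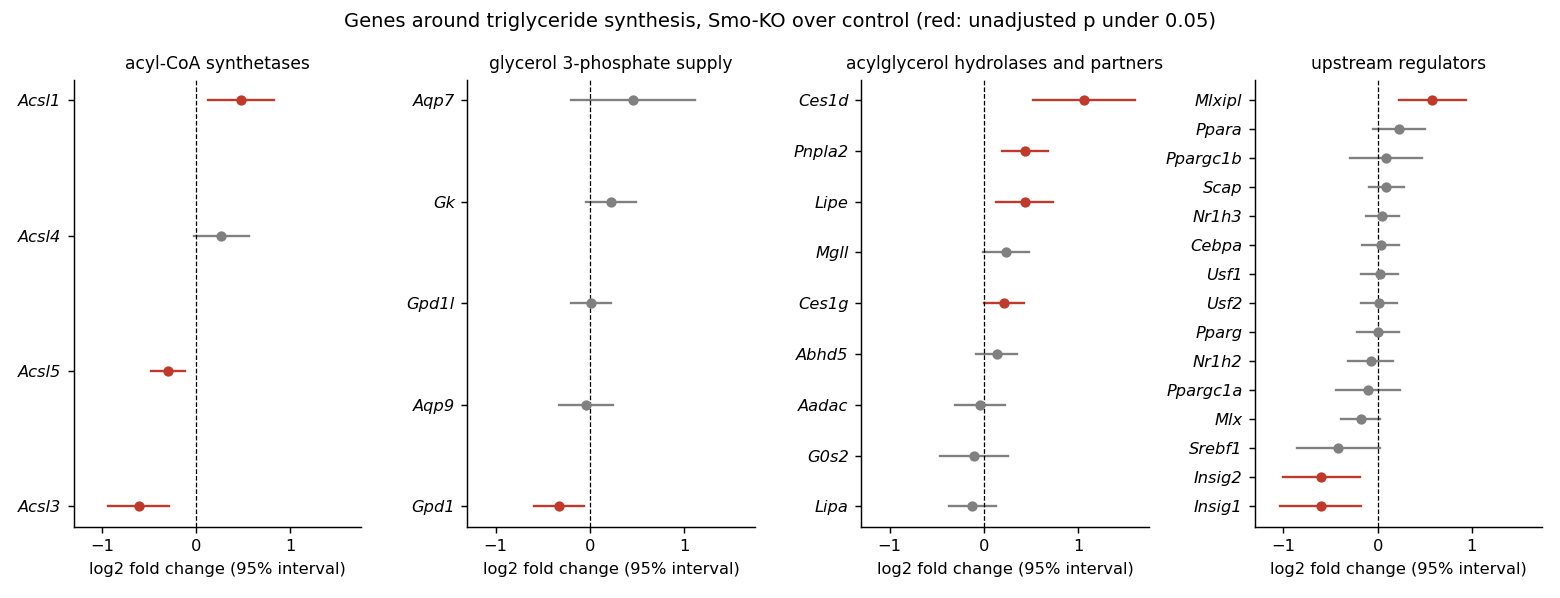
Log2 fold change, Smo-KO over control (horizontal axis), with its 95% interval for every tested gene of 4 lists around triglyceride synthesis, in red where the unadjusted p was under 0.05. Acsl3, Acsl5, Gpd1, Insig1 and Insig2 lie below 0, and Acsl1, Ces1d, Pnpla2, Lipe, Ces1g and Mlxipl lie above 0.

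Of 15 upstream regulators, 1 was higher and 2 were lower. Mlxipl, which encodes the glucose-sensing factor ChREBP, ranged from 105 to 206 CPM in control livers and from 233 to 245 CPM in Smo-KO livers, a log2 fold change of 0.58 (edgeR adjusted p 0.175). Insig1 and Insig2, whose products hold SREBP precursors in the endoplasmic reticulum, were at 65.7% and 66.0% of the control level. Srebf1 itself had 211, 128, 163 and 161 CPM in controls 1 to 4, against 151, 112, 75.6 and 158 CPM in the Smo-KO livers, which overlapped (log2 fold change -0.42, 95% interval -0.86 to 0.03, and -0.24 without Smo-KO mouse 3). Smo-KO mouse 3 was the lowest liver for Srebf1, Insig1, Insig2, Gpd1, Acsl3, Gpam and Agpat2. This liver had the smallest library. It was also the lowest for the hepatocyte markers Tat (243 CPM), Cps1, Hnf4a and Pck1, but not for Alb, Ttr, Apoa1 or Asgr1. Cebpa, the most abundant regulator, had 809 ± 80.7 and 827 ± 35.8 CPM.

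In all, 6 pairs of a member and a regulator known to act on it were examined over the 8 livers with log2 CPM. Gpam followed Srebf1, with Pearson's r = 0.92 and Spearman's rho = 0.90 (exact permutation p = 0.0023 and 0.0046, adjusted over the 6 pairs 0.014 and 0.027). Since the groups did not overlap for Gpam, r was also taken with each group centred on its mean, which gave 0.93 (exact permutation within groups, p = 0.0035, adjusted 0.021), with 0.88 in the 4 control and 0.97 in the 4 Smo-KO livers. Without Smo-KO mice 2 and 3, the livers farthest from the median of Srebf1, r over the other 6 was 0.61 (exact permutation p = 0.215). Lpin1 and Ppara had r = 0.82 (exact permutation p = 0.0146, adjusted 0.0439) and rho = 0.69 (exact permutation p = 0.0694, adjusted 0.208), and with each group centred r was 0.83 (exact permutation within groups, p = 0.0174, adjusted 0.0521). Without Smo-KO mouse 2 and control mouse 3, r was 0.32. Mogat1 with Pparg (r = 0.34, rho = 0.31, exact permutation p = 0.412 and 0.462) and Lpin1 with Ppargc1a (r = -0.046, rho = -0.14, exact permutation p = 0.916 and 0.752) did not pass. Pnpla3 and Srebf1 had r = 0.26 and rho = 0.24 over all livers (exact permutation p = 0.547 and 0.582), where the separate groups of Pnpla3 enter. Within the groups r was negative, at -0.82 in control and -0.78 in Smo-KO livers, and with each group centred it was -0.79, with an exact permutation p of 0.0222 over all 8 livers and of 0.0625 within groups (adjusted over the 6 pairs 0.125). Dgat2 and Mlxipl, whose groups did not overlap for Mlxipl, had r = 0.64 and rho = 0.38 over all livers (exact permutation p = 0.0992 and 0.360), and 0.71 with each group centred (exact permutation p = 0.0476 over all 8 livers and 0.203 within groups).

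**Figure D5:**
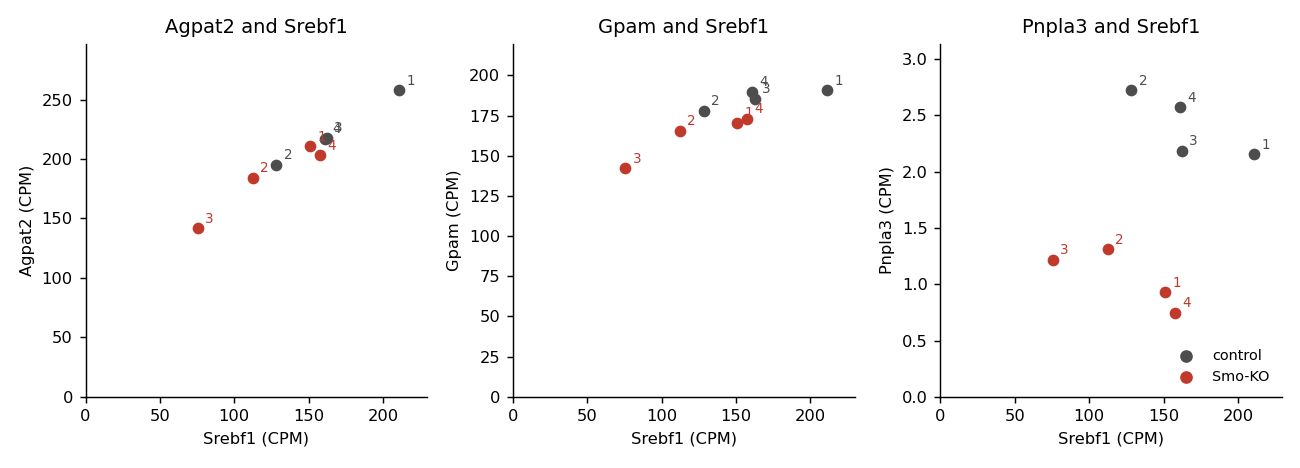
Levels of Agpat2, Gpam and Pnpla3 (vertical axes, CPM) against Srebf1 (horizontal axis, CPM) in the 4 control and 4 Smo-KO livers, numbered by mouse. Agpat2 and Gpam are lowest in Smo-KO mouse 3, where Srebf1 is lowest at 75.6 CPM, while all Smo-KO points of Pnpla3 lie below all its control points, and Srebf1 spans 128 to 211 CPM in control and 75.6 to 158 CPM in Smo-KO livers.

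For the 3 members with the smallest p-values, the genes most like them were listed by Pearson's r of log2 CPM over the 8 livers, as a description. For Agpat2 the highest of all genes tested was Srebf1 (r = 0.988), followed by Ninj1 (0.983) and Rab8a (0.979). For Gpam it was Ap1b1 (0.987), followed by Cbs (0.980), an enzyme of transsulfuration, and Acsl3 (0.978). For Pnpla3 it was Ctla4 (0.966), a checkpoint receptor of T cells with between 6 and 20 reads per liver, followed by Nup98 (0.966) and Spn (0.957), a surface sialoglycoprotein of leukocytes. These livers share the group difference, which alone raises r between genes that differ between the groups.

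Markers of cell types were read beside these levels. The hepatocyte markers summed to 27599 ± 2615 CPM in control and 26196 ± 1151 CPM in Smo-KO livers (exact permutation p = 0.400). All 8 were detected, with Alb the most abundant at 16570 ± 973 and 15338 ± 897 CPM. Their log2 fold changes were below 0 for 6 and above 0 for 2, and none had an adjusted p under 0.05. Only Cps1 (919 ± 50.6 and 733 ± 94.0 CPM) had an unadjusted edgeR p under 0.05, against 7.15% of all genes for lower levels. Tat was at 64.9% of the control level, with overlapping groups. All 7 lymphocyte markers tested had a log2 fold change below 0 in Smo-KO livers, and none had an adjusted p under 0.05. Of the 7, 4 had an unadjusted edgeR p under 0.05, against 7.15% of all genes for lower levels. These were Cd3e (8.20 ± 2.00 and 4.17 ± 1.60 CPM), Cd8a (9.87 ± 0.756 and 5.80 ± 1.09 CPM), Nkg7 (14.5 ± 3.09 and 7.59 ± 2.44 CPM) and Il2rb (10.5 ± 2.99 and 4.43 ± 1.04 CPM). The log2 fold changes of Ptprc, Cd79a and Ms4a1 were -0.0062, -0.09 and -0.22 (unadjusted edgeR p 0.964, 0.743 and 0.590). The 8 lymphocyte markers summed to 96.3, 131, 111 and 114 CPM in controls 1 to 4, against 84.3, 78.4, 106 and 96.5 CPM in the Smo-KO livers (exact permutation p = 0.0857), led by the pan-leukocyte gene Ptprc at 66.3 ± 13.0 and 66.1 ± 7.09 CPM, and none of the 8 was at 0 in all livers. Pnpla3 and these 4 markers were all lower in the Smo-KO group, and the part of the lymphocyte markers in the difference of Pnpla3 was not tested. The defining adipocyte markers were at or near 0: Lep had no read in any liver, and Adipoq, Plin1, Retn and Cfd had at most 1 read in any liver, so that of 6 adipocyte markers only Cidec, which steatotic hepatocytes also express, was tested (42.7 ± 14.7 and 63.3 ± 23.1 CPM). Of 5 enterocyte markers, Cdx2 and Sis had no read in any liver and Vil1 had 6 to 17 reads, while Fabp2 had 110 ± 19.8 and 105 ± 9.34 CPM and Cdhr5 had 241 ± 37.6 and 230 ± 7.28 CPM, and none had an unadjusted p under 0.05.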

How the data were processed

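RNA from the livers of 8 mice, 4 per group, was analysed from whole-number counts per gene symbol, 1 list per liver, as the authors deposited them. The submitters' processing notes name fastp, STAR 2.7.5, featureCounts 2.0.1 and GRCm38, while the lists end in the 5 lines that htseq-count writes. The annotation and the strand setting are not given in the sources used here. Reads on no feature (7.56% to 9.68% of counted reads) and on more than 1 gene (2.45% to 2.61%) were left out. Library sizes ranged from 8203299 to 9999732 reads, at which 3 reads are 0.297 to 0.366 CPM, and intervals cover the spread between livers.

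Tests used R 4.3.3 with edgeR 4.0.16 (filterByExpr with a minimum count of 10, TMM, estimateDisp, glmQLFit and glmQLFTest, genotype only, Benjamini-Hochberg over 12977 genes), after the procedure was tested on simulated data. DESeq2 1.42.0 was an alternative. Standard errors are those implied by the F statistic. CPM are counts scaled to the TMM-adjusted library size, with a prior count of 2 for log2 values. Single values were compared by exact permutation tests over all 70 assignments of the 8 mice, two-sided. Exon lengths and gene positions came from GENCODE M21 and promoters from RefSeq GRCm38.p6. Figures were drawn with matplotlib 3.10.9.

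The members and gene lists were chosen with earlier results of these data known. The rule for named genes was: all members, Smo, in each list every gene with an unadjusted p under 0.05 and its most abundant gene, and the 3 genes most like each of the 3 members with the smallest p. Srebf1, Gpat4, Ptprc, Cd79a, Ms4a1, Fabp2, the hepatocyte markers and the genes at or near 0 were named beside it. So were the regulators paired with members, the other isoforms of the same steps and the genes that overlap a member. Ldaf1 was matched through its older symbol Tmem159. The 3 promoter motifs were chosen after values were seen. Between livers of 1 group, chi-square per degree of freedom ran from 8.17 to 18.5, so no library was a copy. Alternatives were other size factors, DESeq2, other filters, the replicate block, each liver left out, unscaled libraries and other lengths.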

Additional observations from a re-analysis of the deposited data

Results flagged for a closer look

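Among the 46 genes examined in control and in Smo-KO livers (92 groups of 4), 2 groups held a liver standing apart from the rest, and chance alone would flag 4.6, about 1 in 20. Acsl3 was 14.5 CPM in Smo-KO mouse 3, against 23.0 to 24.3 CPM in the other Smo-KO mice, and its log2 fold change moved from -0.61 to -0.47 without that mouse. Cd8a was 11.001 CPM in control mouse 1, against 9.44 to 9.54 CPM in the other control mice, and its log2 fold change moved from -0.77 to -0.71 without it. None of the 10 triglyceride synthesis genes held such a liver.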

How the results depend on the processing

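Genes past an adjusted p of 0.05 numbered 0 with edgeR as reported, 163 with DESeq2, 61 with no filter, 8 with the replicate block and 15 at an adjusted p of 0.1, and ran from 0 to 78 when each liver was left out (78 without Smo-KO mouse 1, 5 without control mouse 1, 4 without Smo-KO mouse 3). The number of members with an adjusted p under 0.05 was 0 in each of these fits; DESeq2 gave Pnpla3 no adjusted p, and the adjusted p of Pnpla3 ran from 0.0762 to 0.252 in the others. The number of members with an unadjusted p under 0.05 was 2, but 1 with RLE size factors, 3 with no filter (Agpat2, Lpin2 and Pnpla3) and 4 with the replicate block (Gpam, Agpat2, Lpin2 and Pnpla3). It was 0 with at least 10 counts in every sample, which removes Pnpla3 and gave Gpam an unadjusted edgeR p of 0.0503. It ran from 1 to 3 with each liver left out and was 1 without control mouse 3 or 4 or Smo-KO mouse 2 or 3. Deviations from the group means had r = 0.104, 0.187, 0.061 and 0.113 between livers of the same number 1 to 4, and from -0.205 to 0.157 between livers of different numbers. All 4 same-number values were above 0, but the pair numbered 3 was not over 0.1. Smo-KO mice 3 and 4 correlated best with another number. Whether the numbers mark pairs was not tested, and these values do not decide it. No label gives the numbers a meaning, so the main fit left them out and the replicate block is given as an alternative.

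Of 129 alternative values of the members' log2 fold changes, 123 kept their sign. With each liver left out, Agpat3 ran from -0.019 to 0.058 (below 0 without control mouse 2, control mouse 3 or Smo-KO mouse 1), Lpin1 from -0.0049 to 0.49 and Mogat2 from -0.033 to 0.31 (below 0 without Smo-KO mouse 2), and Dgat2 from -0.0079 to 0.15 (below 0 without control mouse 3). Mogat1 ran from 0.027 (without Smo-KO mouse 2) to 0.35 and Dgat1 from 0.021 (without control mouse 3) to 0.092. The share of Gpam differed by -3.04 points in raw counts (exact permutation p = 0.0857) and by -3.40 (without control mouse 4) to -1.26 points (without Smo-KO mouse 1). The share of Agpat2 differed by -4.45 points in raw counts and by -5.59 points without Smo-KO mouse 1 (exact permutation p = 0.0286 in both), and by -5.59 to -2.75 points over the livers left out. The share of Lpin1 differed by -0.076 points in raw counts and by -1.50 to 1.31 points over the livers left out, that of Mogat1 by -0.69 to 2.75 points and that of Dgat2 by -0.14 to 0.28 points. With each group centred, r was -0.79 for Pnpla3 and Srebf1, 0.71 for Dgat2 and Mlxipl and 0.050 for Lpin1 and Ppargc1a, and permuting within groups, an alternative chosen after seeing the data, left neither of the first 2 with an exact permutation p under 0.05 (0.0625 and 0.203). Without the 2 livers farthest from the median of the regulator, r was 0.61 for Gpam and Srebf1, -0.48 for Mogat1 and Pparg and 0.32 for Lpin1 and Ppara. In the same way, r was 0.24 for Dgat2 and Mlxipl, 0.027 for Pnpla3 and Srebf1 and -0.097 for Lpin1 and Ppargc1a. Under RLE the all-gene median shifted by 0.0061 (log2). The cause of these shifts was not tested, except where fewer genes or livers entered by construction. Depth limits Pnpla3 most, at 7 to 26 reads per liver.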

Other observations

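Other liver cell types were read from lists of their markers, none of which passed edgeR's adjusted threshold of 0.05. The macrophage markers summed to 1733 ± 230 CPM in control and 1784 ± 238 CPM in Smo-KO livers (SD, n = 4 each), with Cd5l the most abundant. Among the 8, 4 had a log2 fold change above 0 and 4 below. Lyz2 alone had an unadjusted edgeR p under 0.05, at 412 ± 37.9 and 513 ± 48.8 CPM, against 6.7% of all genes for higher levels. The stellate and fibroblast markers summed to 1050.4 ± 70.7 and 974 ± 142 CPM, led by Col3a1. Of these 8, 4 had a log2 fold change above 0 and 4 below. Col1a1, a chain of type I collagen, was at 191 ± 15.5 and 148 ± 28.7 CPM, with overlapping groups. It alone of that list had an unadjusted edgeR p under 0.05, against 7.15% of all genes for lower levels. The endothelial markers summed to 183 ± 17.8 and 152 ± 47.9 CPM, led by Clec4g, and all 6 had a log2 fold change below 0. Pecam1 was at 18.2 ± 2.51 and 12.9 ± 4.15 CPM, with overlapping groups. It alone of the 6 had an unadjusted edgeR p under 0.05, against 7.15% of all genes for lower levels. The cholangiocyte markers summed to 149 ± 41.8 and 177 ± 46.0 CPM, led by Spp1, and none had an unadjusted p under 0.05. The enterocyte markers, led by Cdhr5, summed to 352 ± 27.0 and 336 ± 7.62 CPM. The skeletal muscle markers summed to 2.64 ± 1.29 and 1.80 ± 0.673 CPM, led by Mylpf, and Myh4 was at 0 in all livers.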
